A study of Danio rerio with 48 samples.

Results

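The comparison is of miRNAs in homozygous *gemin6* mutant zebrafish larvae against wild-type larvae of other families. Its members were taken by their titles: the 3 small RNA libraries of *gemin6* mutants and the 3 small RNA libraries of wild-type fish, 6 of the 48 libraries of the series and 6 of its 15 small RNA libraries. Each library was made from whole fish of the TAB-5 background at 7 days post fertilization (dpf). The 3 wild-type libraries came from the *gemin5*, *smn1* and *rnpc3* families, 1 from each, and none came from the *gemin6* family. The genotype and the family therefore cannot be told apart in this comparison. The other 9 small RNA libraries were of homozygous *gemin4*, *smn1* and *gemin5* mutants, 3 of each. The mutation is the deletion allele hg110 in the study's mRNA libraries, whose fish came from 1 pair of heterozygous parents, had been exposed to copper sulfate to ablate hair cells, controls included, and were genotyped and then pooled. The same handling is not stated for the small RNA libraries. Nor is it stated whether the 3 libraries of a group came from separate crosses. The p-values of miRNAs measure the spread within groups over all 15 small RNA libraries, which may be technical. A mutant group holds 1 family, so only the wild-type group adds spread between families.

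Gemin6 is a subunit of the SMN complex, which loads Sm proteins onto small nuclear RNAs to make the spliceosomal snRNPs, and in human cells it pairs with Gemin7 in an Sm-like dimer. Other members of the complex, Gemin3 and Gemin4, have been found in human cells in particles that hold an Argonaute protein and miRNAs. A miRNA is cut from a hairpin transcript, first in the nucleus by Drosha with Dgcr8 and then in the cytoplasm by Dicer. The resulting duplex has an arm from the 5′ side (5p) and an arm from the 3′ side (3p). Argonaute usually keeps 1 of them, the major arm, and the other, the minor arm, is mostly degraded. Many miRNAs are markers of a tissue, so a level in a whole larva follows both the number of cells of that tissue and the amount of miRNA per cell. These cannot be told apart here.

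The deposited tables list expected counts for 350 mature miRNA names. Totals were 11702876, 12532488 and 24052665 in the *gemin6* libraries, against 9844960, 10549488 and 7781065 in the wild-type libraries of the *gemin5*, *smn1* and *rnpc3* families. Over all 15 libraries the totals ran from 7781065 to 49059521. Levels are CPM, counts scaled to a fixed library total, with TMM, a normalization that sets the bulk of miRNAs equal between libraries. Wild-type values are given throughout in the order *gemin5*, *smn1* and *rnpc3* family. After the filter on low counts 327 names were tested. Known miRNAs of muscle, brain, skin, gut and blood were all detected in both groups.

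Libraries were first compared by the mean absolute difference of log2(CPM + 1) over the 327 names. The *gemin6* libraries differed from each other by 0.159 to 0.256, and replicate 3 was the farthest of them from both others. They differed from the *gemin4* mutants by 0.167 to 0.282, which overlaps the differences among themselves. Differences from *smn1* mutants were 0.314 to 0.371 and from *gemin5* mutants 0.308 to 0.361. Differences from the wild-type libraries of the *gemin5* and *smn1* families were 0.298 to 0.337. The wild-type library of the *rnpc3* family stood apart: it differed from the other 14 libraries by 0.381 to 0.558, and those 14 differed from each other by 0.0985 to 0.371. The wild-type library of the *gemin5* family was 0.181 to 0.229 from the *gemin5* mutants, and that of the *smn1* family 0.183 to 0.244 from the *smn1* mutants.

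**Figure D1:**
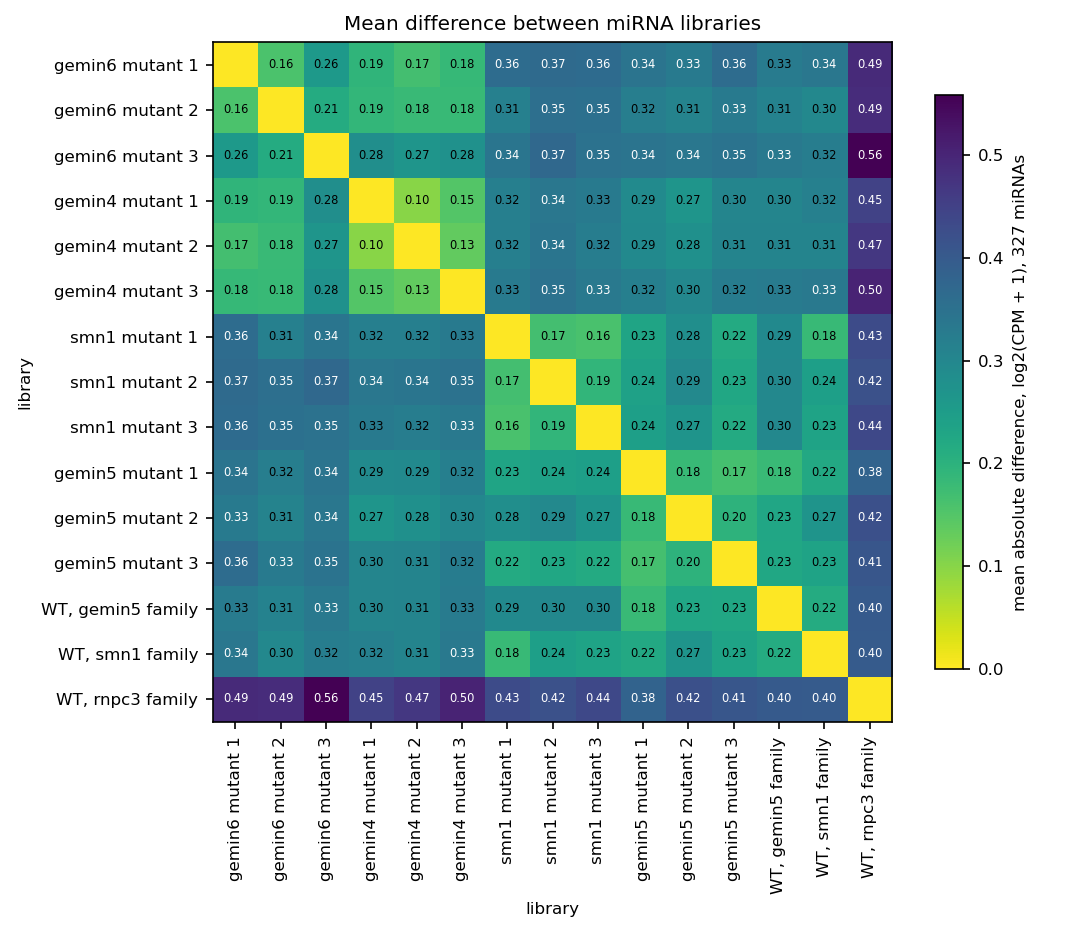
Mean absolute difference of log2(CPM + 1) over 327 miRNAs between each pair of the 15 small RNA libraries (rows and columns, *gemin6* mutants first and wild type last; darker is farther apart). The *gemin6* and *gemin4* libraries lie 0.167 to 0.282 apart, and the wild-type library of the *rnpc3* family lies 0.381 or more from every other library.

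In *gemin6* mutants 90 of the 327 miRNAs passed an adjusted p of 0.05 against wild type (27.5%, beside 43.1% at an unadjusted p below 0.05), of which 31 were higher (9.48%) and 59 lower (18%). In 87 of the 90 the 3 *gemin6* libraries all lay on the same side of the 3 wild-type libraries. Such non-overlap held for 120 of all 327 miRNAs (36.7%). The changes were modest: among those called the median size was 0.523 on the log2 scale, and 5 rose and 7 fell by at least 1 on that scale. Of the 31 that rose 15, and of the 59 that fell 6, had a mean above 1000 CPM in *gemin6* mutants. This limit uses the *gemin6* level itself, which favours miRNAs that rose, and the share of all 327 above it was not counted. The split by direction depended on the scaling. With DESeq2's size factors inside edgeR, 52 were higher and 44 lower, while with total counts alone 17 were higher and 136 lower, since the median log2 change of all miRNAs was -0.067 with TMM, -0.003 with those size factors and -0.27 with totals alone. Without the wild-type library of the *rnpc3* family 42 were higher and 41 lower. With only the 6 compared libraries in the fit 25 were higher and 18 lower. That fit lost 48 of the 90 calls, 41 of them of lower miRNAs. Of the 90, 33 were called in all 12 alternative analyses (15 higher and 18 lower), and none changed direction in any of the 12.

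Among the leading rises were miR-731 and miR-462, both arms of miR-1388 and the miR-146 family. miR-462 and miR-731 are a pair known in fish for their induction by viral infection and by low oxygen, and their hairpins are neighbours in the RefSeq annotation of the GRCz12tu assembly. miR-731 had 379, 403 and 495 CPM in *gemin6* mutants, against 256, 175 and 135 CPM in wild type, a log2 fold change of 1.18 (SE 0.22, edgeR adjusted p = 0.00182). miR-462 had 51.1, 56.9 and 72.4 CPM in *gemin6* mutants, against 44.5, 34.4 and 26.0 CPM in wild type, a log2 fold change of 0.78 (SE 0.20, edgeR adjusted p = 0.00977). The groups did not overlap for either, and in both the *rnpc3* family was the lowest of the wild-type libraries. Without that library both were still called, but the call of miR-462 was lost in the fit of the 6 libraries alone. The remaining fish miRNA listed with them, miR-2184, had a log2 fold change of 0.16 (SE 0.31) and was not called.

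Both arms of miR-1388 were higher. miR-1388-5p, the major arm, had 212, 194.1 and 193 CPM in *gemin6* mutants, against 133.01, 109 and 80.5 CPM in wild type (log2 fold change 0.89, SE 0.15, edgeR adjusted p = 0.00143). miR-1388-3p had 46.7, 34.2 and 49.8 CPM in *gemin6* mutants, against 23.7, 18.1 and 11.1 CPM in wild type (log2 fold change 1.30, SE 0.22, edgeR adjusted p = 0.00143). It was the only hairpin of the 98 with both arms tested in which both arms were called higher.

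miR-146a and miR-146b, in mammals part of the feedback on inflammatory signalling through NF-kappaB, were both higher. miR-146b had 64.5, 56.8 and 53.5 CPM in *gemin6* mutants, against 22.8, 30.3 and 25.2 CPM in wild type (log2 fold change 1.15, SE 0.22). miR-146a had 497, 457 and 436 CPM in *gemin6* mutants, against 268, 366 and 236.7 CPM in wild type (log2 fold change 0.67, SE 0.18). The groups were separate for each, and both were called in all 12 alternatives.

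The single largest rise among the called miRNAs, miR-738, was also the most variable of the leading ones. It had 216.4, 135 and 247 CPM in *gemin6* mutants, against 72.0, 118 and 39.1 CPM in wild type (log2 fold change 1.38, SE 0.40, edgeR adjusted p = 0.019). Without *gemin6* replicate 3 it fell short of the threshold, with a log2 fold change of 1.19. It also fell short in the fit of the 6 libraries alone. Its counts were not whole in any of the 15 libraries, so they include divided reads. What those reads were shared with was not determined. The other leading rises were miR-7145, miR-730, miR-125a, miR-7a and miR-125b-2-3p, with log2 fold changes of 1.11, 0.76, 0.68, 0.67 and 0.63. miR-125a, of a family related to lin-4 of worms, had 7906, 7542 and 6555 CPM in *gemin6* mutants, against 4634, 4937 and 4144 CPM in wild type.

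Among the 10 most abundant miRNAs of *gemin6* mutants 6 were called, beside 27.5% of all 327. Ranking by the level in *gemin6* mutants favours miRNAs that rose. miR-181a-5p, known in mammals for tuning the signalling of developing T cells, took 22.5% to 23.9% of all counts in *gemin6* mutants and 17.9% to 19.4% in wild type. Its level was 265773, 243457 and 226289 CPM in *gemin6* mutants, against 179593, 180411 and 157070.0 CPM in wild type (log2 fold change 0.51, SE 0.10, edgeR adjusted p = 0.00182). It stood above wild type in every *gemin6* library, and it was called in all 12 alternatives. miR-10d-5p, miR-10c-5p, miR-192 and miR-182-5p were higher by 0.40, 0.28, 0.55 and 0.25 on the log2 scale, and miR-183-5p was lower by 0.36. For miR-192 the *gemin6* and wild-type libraries overlapped. With totals alone the calls of miR-10c-5p and miR-192 were lost, with log2 fold changes of 0.067 and 0.34. Both were also lost without *gemin6* replicate 1 or without *gemin6* replicate 2. That of miR-10c-5p was lost in addition without the *gemin5* or the *smn1* family, and that of miR-192 without the *rnpc3* family and in the fit of the 6 libraries alone. The call of miR-182-5p was lost with totals alone, without any of the *gemin6* libraries and without the *smn1* family. The remaining 4 were miR-10b-5p, miR-26a-5p, miR-10a-5p and miR-204-5p, with log2 fold changes of 0.26, 0.01, 0.21 and 0.36, none of them called.

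**Figure D2:**
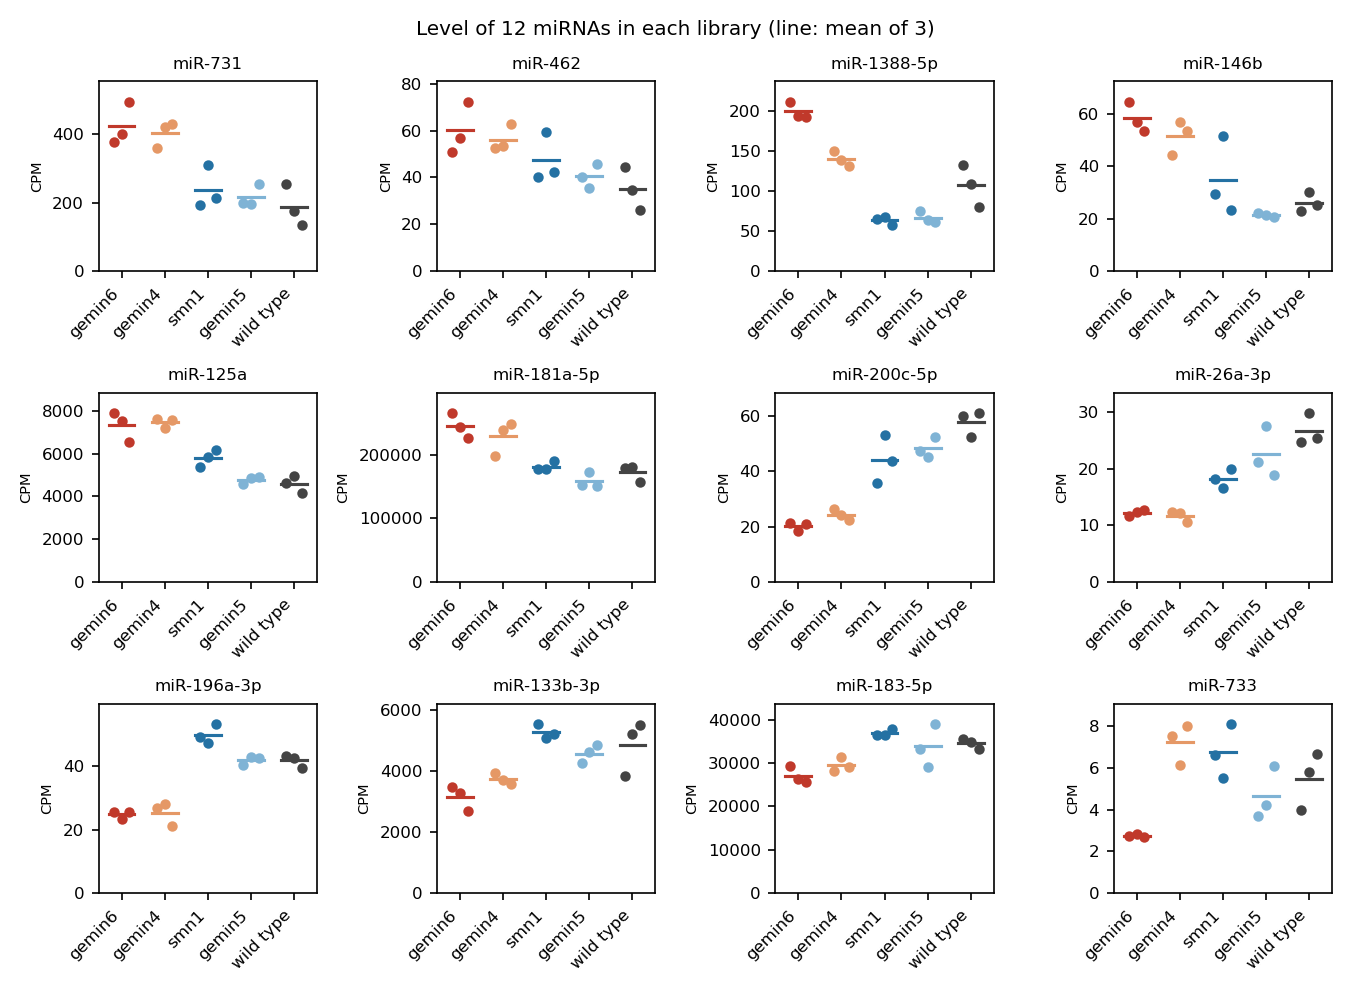
CPM of 12 miRNAs in each of the 15 small RNA libraries (points, with a line at the mean of the 3 libraries), with *gemin6* mutants at the left and wild type at the right of each panel and each y axis starting at 0. In 11 of the 12 panels the *gemin6* and *gemin4* means lie on the same side of wild type, and for miR-733 only the *gemin6* mean lies below every wild-type library.

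The falls were concentrated in minor arms. An arm was named major or minor from its mean level over all 15 libraries, summed over its names. Of 119 minor-arm names tested 43 were lower (36.1%) and 2 higher (1.68%), with a median log2 fold change of -0.344. Of 102 major-arm names 13 were lower (12.7%) and 14 higher (13.7%), with a median of 0.01. Counts of arms here and below are of names, and these names came from 98 hairpins, so they are not all separate. Names that differ only in a copy number were taken as 1 hairpin, and let-7c-3p and let-7d-3p had the same counts. Of 106 names from hairpins with only 1 arm tested, 3 were lower and 15 higher. Minor arms are scarce, with a median of 24.3 CPM against 1040 CPM for major arms. Without the wild-type library of the *rnpc3* family 28 minor arms were lower and 5 higher (median log2 fold change -0.177), and 28 were lower and 2 higher without *gemin6* replicate 2. With totals alone 79 were lower and 2 higher, and with only the 6 libraries in the fit 14 were lower and 2 higher.

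The share of the minor arm within a pair, each arm taken as its most abundant name, does not depend on how libraries are scaled. Where an arm has several names it is not the share of all reads of the hairpin. For example, miR-9-5p, minor by summed names, held 54.14% to 59.92% of its pair in *gemin6* mutants. In 35 of 98 hairpins the share within the pair was lower in all 3 *gemin6* libraries than in all 3 wild-type libraries (35.7%). In 3 it was higher in all (3.06%). The median share over the 98 hairpins was 2.95%, 2.76% and 2.62% in *gemin6* mutants, against 3.22%, 3.04% and 2.83% in wild type, and these ranges overlap. It was 2.16% to 2.26% in *gemin4* mutants, below both. In *smn1* mutants it was 2.57% to 2.93% and in *gemin5* mutants 2.47% to 3.0%, and both overlap the *gemin6* values. The median log2 change of minor arms was -0.26 in *gemin4*, -0.149 in *smn1* and -0.15 in *gemin5* mutants, values that share the same wild-type libraries as the -0.344 of *gemin6* mutants.

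The clearest case was the miR-200 family, a marker of epithelia that holds back the Zeb factors of epithelial-mesenchymal transition. Its hairpins lie in 2 groups of neighbours in the RefSeq annotation, miR-200b with miR-200a, miR-429 and miR-7149, and miR-429b with miR-141 and miR-200c. miR-200c-5p, a minor arm, had 21.2, 18.5 and 21.02 CPM in *gemin6* mutants, against 60.2, 52.5 and 61.2 CPM in wild type (log2 fold change -1.52, SE 0.14, edgeR adjusted p = 8.71e-06). No other miRNA of the comparison had an adjusted p as small. Its partner miR-200c-3p had 690.5, 696 and 498 CPM in *gemin6* mutants, against 527, 559 and 512 CPM in wild type (log2 fold change 0.24, SE 0.13), with overlapping groups and no call. The 5p arm thus made up 2.98%, 2.59% and 4.05% of the reads of these 2 names in *gemin6* mutants, against 10.25%, 8.58% and 10.67% in wild type.

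The other 5p arms of the family also fell. miR-200b-5p had 5.33, 4.75 and 3.18 CPM in *gemin6* mutants, against 7.45, 8.98 and 11.1 CPM in wild type (log2 fold change -1.09, SE 0.23). miR-200a-5p had 97.2, 89.1 and 85.0 CPM in *gemin6* mutants, against 150.1, 140.997 and 193 CPM in wild type (log2 fold change -0.84, SE 0.15). miR-141-5p had 9.33, 11.3 and 10.3 CPM in *gemin6* mutants, against 18.3, 14.3 and 20.8 CPM in wild type (log2 fold change -0.78, SE 0.15). All 4 of these arms were called in all 12 alternatives. miR-141-3p moved the other way, with 1335, 1195 and 969 CPM in *gemin6* mutants, against 853, 904 and 721 CPM in wild type (log2 fold change 0.50, SE 0.12, edgeR adjusted p = 0.00701). Among the 98 pairs, each made of the most abundant name of either arm, miR-141 and miR-219 were the 2 with the minor arm called lower and the major arm higher. The abundant miR-181a-5p, called higher, also has a less abundant second 3p name, miR-181a-2-3p, that was called lower (log2 fold change -0.42, SE 0.13). That call held in 7 of the 12 alternatives. The more abundant 3p name, miR-181a-3p, had a log2 fold change of -0.35 and was not called. miR-219, which in mice promotes the maturation of oligodendrocytes, had a log2 fold change of 0.46 (SE 0.10) for its 5p arm and -0.38 (SE 0.10) for its 3p arm.

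**Figure D3:**
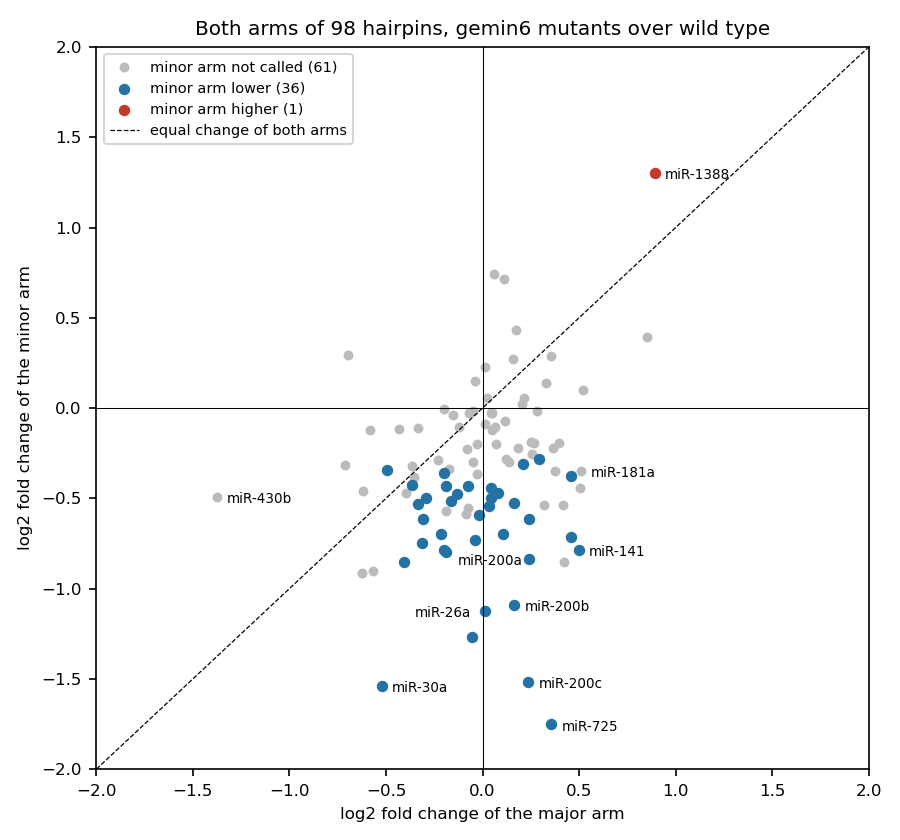
Log2 fold change of the minor arm (y axis) against that of the major arm (x axis) of the same hairpin, *gemin6* mutants over wild type, for 98 hairpins (points; where a hairpin has several names for an arm, the most abundant is shown). The 36 hairpins with a minor arm called lower are in blue, miR-1388 with both arms higher is in red, and 76 of the 98 lie below the dashed line of equal change.

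Several of the largest falls were of minor arms near the limit of detection. miR-725-5p had 2.00, 2.58 and 1.84 CPM in *gemin6* mutants, against 3.58, 8.37 and 9.50 CPM in wild type (log2 fold change -1.75, SE 0.31). In the *gemin5* and *smn1* families its wild-type level was close to that of the mutants of the same family, given further below. miR-30a-3p had 0.571, 1.08 and 0.585 CPM in *gemin6* mutants, against 1.51, 2.55 and 2.26 CPM in wild type (log2 fold change -1.54, SE 0.35). Both were called in all 12 alternatives, whereas miR-7146-5p, under 1.4 CPM in all 6 libraries, was called in 5. miR-26a-3p was firmer, with 11.7, 12.3 and 12.7 CPM in *gemin6* mutants, against 24.7, 29.9 and 25.5 CPM in wild type (log2 fold change -1.12, SE 0.14). Its abundant partner miR-26a-5p had 52942, 50399.9 and 53529.8 CPM in *gemin6* mutants, against 56898, 55806 and 42631 CPM in wild type, and was not called.

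miR-430b-3p, of the family that clears maternal mRNAs in the early embryo, rested on 1 library in the comparison with wild type. It had 249, 267 and 274 CPM in *gemin6* mutants, against 301, 356 and 1397 CPM in wild type (log2 fold change -1.38, SE 0.43, edgeR adjusted p = 0.0295). Without the *rnpc3* family the log2 fold change was -0.26 and the call was lost, as it was without any of the 3 *gemin6* libraries. It was the only one of the 15 miR-430 names to be called, although 13 were lower with totals alone, 6 without the *gemin5* family and 5 without the *smn1* family. Against *gemin4* mutants the log2 difference of miR-430b-3p was -1.32 (edgeR adjusted p = 0.267) and was not called. All 3 *gemin6* libraries lay below the *gemin4* libraries.

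The miRNAs were also grouped by the tissue or genomic cluster they are known for. In the muscle group 7 of 12 miRNAs were lower, all of them names of miR-133 or miR-499, and none was higher. The median log2 fold change of the group was -0.443. Over all 327, 18% were lower and 9.48% higher, with a median of -0.067. Among minor arms 36.1% were lower, with a median of -0.344. Of the 7 lower in the muscle group, miR-133a-5p, miR-133a-2-5p and miR-499-3p were minor arms and the others major arms. In the fit of the 6 libraries alone 0 were called. miR-133 and miR-499 are made with muscle transcripts and act on the growth and fibre type of muscle. miR-133b-3p had 3461, 3281 and 2697 CPM in *gemin6* mutants, against 3844, 5192 and 5517 CPM in wild type (log2 fold change -0.62, SE 0.12, edgeR adjusted p = 0.00236). miR-133a-3p had 6072, 5353 and 4697 CPM in *gemin6* mutants, against 6160.1, 7262 and 7335 CPM in wild type (log2 fold change -0.36, SE 0.09). In both the groups did not overlap, with the *gemin5* family the lowest of the wild-type libraries. miR-499-5p had 551, 505 and 487 CPM in *gemin6* mutants, against 621, 669 and 603 CPM in wild type (log2 fold change -0.29, SE 0.08). The other 4 lower were miR-133c-3p, miR-133a-5p, miR-133a-2-5p and miR-499-3p, at -0.62, -0.43, -0.47 and -0.50. For miR-133c-3p the groups overlapped. It was called in 9 of the 12 alternatives, and miR-133a-5p and miR-133a-2-5p in 6 each. Without the *rnpc3* family the calls of miR-133c-3p, miR-133a-5p and miR-133a-2-5p were lost, at -0.28, -0.18 and -0.19.

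The muscle group was not uniform. miR-1, transcribed with miR-133a, had a log2 fold change of 0.09 (SE 0.15), miR-206-3p had -0.04 (SE 0.16) and miR-206-5p 0.15 (SE 0.19). Their hairpins are neighbours of those of miR-133a, miR-133b and miR-133c in the RefSeq annotation. The 2 remaining members, miR-133b-5p and miR-133c-5p, had -0.91 (SE 0.35) and -0.46 (SE 0.40). Without the *rnpc3* family 4 of the 12 were lower, with a median of -0.19. Without *gemin6* replicate 3, 4 were lower.

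Of 16 epithelial miRNAs 6 were lower and 1 higher, beside 18% lower and 9.48% higher over all 327 and 36.1% lower among minor arms. Without *gemin6* replicate 3 the count was 6 lower and 4 higher. With totals alone 10 were lower and 1 higher. All 6 that were lower were 5p minor arms: those of miR-200a, miR-200b, miR-200c and miR-141, and miR-203a-5p and miR-203b-5p of a family enriched in skin, at -0.70 and -0.48. The abundant miR-205-5p, also of the epidermis, had a log2 fold change of -0.17 (SE 0.11). Of 20 neural miRNAs 6 were lower and 2 higher, beside the same shares over all 327 and over minor arms. All 6 that were lower were minor arms, among them miR-124-5p and miR-132-5p at -0.52 and -0.51, and both rises were major arms, miR-219-5p and miR-138-5p, with miR-138-5p at 0.37 (SE 0.10). With totals alone 9 were lower and 0 higher, and in the fit of the 6 libraries alone 0 were lower and 1 higher. Without *gemin6* replicate 2, 3 were lower and 2 higher. The most abundant neural miRNA, miR-9-5p, a regulator of neural progenitors, had a log2 fold change of 0.22 (SE 0.09) and was not called.

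In the sensory cluster of miR-183, miR-96 and miR-182, expressed in hair cells and photoreceptors, the members moved in different directions. miR-183-5p had 29332, 26334 and 25626 CPM in *gemin6* mutants, against 35705, 34981 and 33384 CPM in wild type (log2 fold change -0.36, SE 0.09, edgeR adjusted p = 0.0107). miR-182-5p had 26891, 26238 and 26492 CPM in *gemin6* mutants, against 23046, 22226 and 21688 CPM in wild type (log2 fold change 0.25, SE 0.08, edgeR adjusted p = 0.0325). Neither pair of groups overlapped. The call of miR-182-5p was lost with totals alone, without any 1 of the *gemin6* libraries and without the *smn1* family. Its counts were whole in every library, whereas those of miR-183-5p were not whole in 14 of the 15. miR-96-3p was lower by 0.73 (SE 0.14), and the summed level of the 6 names was 53240 to 57520 CPM in *gemin6* mutants and 56280 to 59950 CPM in wild type.

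The counts of the next groups stand beside 9.48% higher and 18% lower over all 327 miRNAs. Of 12 let-7 miRNAs, which mark the passage from early to late development in worms, 3 were higher and none lower, but with totals alone 0 were higher and 2 lower. The 3 were let-7d-5p at 0.41, let-7c-5p at 0.32 and let-7e at 0.24. Without *gemin6* replicate 1 or without *gemin6* replicate 3, 1 was higher, and without the *smn1* family 5 were higher and 2 lower. The miR-10 and miR-196 miRNAs of the Hox clusters had 2 higher and 4 lower of 14, with 4 higher and 3 lower without the *rnpc3* family and 1 higher and 8 lower with totals alone. Without *gemin6* replicate 2 they had 1 higher and 2 lower, and without *gemin6* replicate 3 they had 3 higher and 2 lower. The 4 were miR-196a-3p (25.6, 23.4 and 25.7 CPM in *gemin6* mutants, against 43.4, 42.6 and 39.6 CPM in wild type), miR-196a-5p, miR-10b-2-3p and miR-10a-3p. Of 11 miRNAs of the miR-100 and miR-125 clusters 3 were higher and 1 lower. The proliferation group, which holds the miR-17 to miR-92 family, had 8 lower and 1 higher of 35, a share of lower calls near that over all 327, and 3 lower and 1 higher without the *rnpc3* family. With totals alone 21 were lower, and in the fit of the 6 libraries alone 0 were. Its 1 rise was miR-25-3p, at 0.50 (SE 0.11). Of 8 miR-30 miRNAs 2 were lower, miR-30a-3p and miR-30a-5p, and 6 were lower with totals alone. Of 4 liver and gut miRNAs 1 was higher, miR-192, whose groups overlapped. miR-375, needed for pancreatic islets in zebrafish, was 1 of 4 pancreas miRNAs and was higher, with 959.8, 875 and 907 CPM in *gemin6* mutants, against 722, 608 and 704 CPM in wild type.

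In 7 groups 0 members were called by edgeR: blood (8 tested), vascular and smooth muscle (7), skeletal and connective tissue (6), the miR-34 targets of p53 (4), eye and choroid plexus (3), miR-29 (2) and miR-21 (1). miR-21, which rises in injured and regenerating tissue, had 10094, 10863 and 18514 CPM in *gemin6* mutants, against 9239, 9523 and 10146 CPM in wild type (log2 fold change 0.45, SE 0.18). *gemin6* replicate 3 was far above the other 5 libraries, which lay between 9239 and 10863 CPM. The summed level of the blood group, which holds miR-451, miR-144, miR-142, miR-150 and miR-223 of red and white cells, was 915.7 to 1382 CPM in *gemin6* mutants and 1092 to 1436 CPM in wild type. These counts of 0 hold for the fit with TMM and all 15 libraries: in the alternatives up to 2 of the blood group, 2 of the vascular group, 4 of the skeletal group, and 1 each of the p53, eye and miR-21 groups were called, and 0 of the miR-29 group. miR-204-5p of the lens and choroid plexus, with a log2 fold change of 0.36, was called higher in 6 of the 12.

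**Figure D4:**
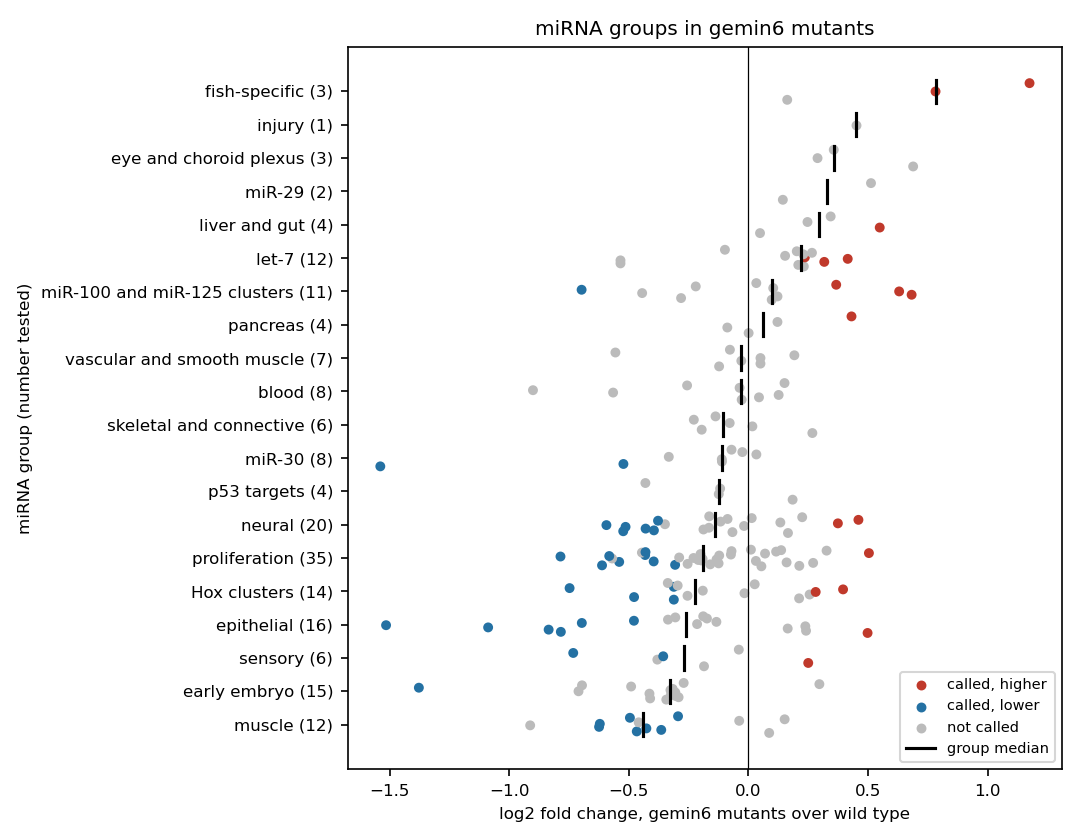
Log2 fold change of *gemin6* mutants over wild type (x axis) for each tested member of 20 miRNA groups (rows, with the number tested, ordered by their median; red called higher, blue called lower, grey not called, black line the median). The muscle group has the lowest median, -0.443, and the fish-specific group (miR-462, miR-731 and miR-2184 only) the highest, 0.782.

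The *gemin6* libraries were closest to those of *gemin4* mutants, and the difference between these mutants was tested directly. The wild-type libraries do not enter that difference, but all 15 libraries set the scaling and the spread in the fit. miR-733 alone passed the threshold, 1 of 327 (0.306%), and 0 were higher by edgeR. At an unadjusted p below 0.05 there were 32 (9.79%), and DESeq2 called 2 higher and 1 lower. The libraries did not overlap for 83 (25.4%). Fitted on these 6 libraries alone, 9 were higher and 5 lower. miR-733 had 2.76, 2.83 and 2.67 CPM in *gemin6* mutants, against 7.55, 6.15 and 8.01 CPM in *gemin4* mutants (log2 difference -1.37, SE 0.22, edgeR adjusted p = 0.00668). All 3 *gemin6* libraries were below all 12 others, of which the lowest had 3.71 CPM. Without *gemin6* replicate 3 the difference was -1.346 and was not called, which left no miRNA called.

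Of the 90 miRNAs called against wild type, 79 differed by less than 0.3 on the log2 scale between *gemin6* and *gemin4* mutants. The median size of that difference was 0.103, beside 0.523 against wild type, the comparison that selected these 90. Over all 327 the medians were 0.122 against *gemin4* mutants and 0.265 against wild type. A small difference from *gemin4* mutants was thus general and not particular to the 90. A difference that misses the threshold does not show equal levels. miR-200c-5p had 26.3, 24.3 and 22.4 CPM in *gemin4* mutants, with all 3 above the 3 *gemin6* libraries and a log2 difference of -0.27 (SE 0.14, edgeR adjusted p = 0.53). Its share of the pair with miR-200c-3p was not lower in *gemin6* mutants: 2.98%, 2.59% and 4.05%, against 2.92%, 2.86% and 2.37% in *gemin4* mutants. The 5p arms of miR-200a, miR-200b and miR-141 differed from *gemin4* mutants by 0.09, -0.11 and -0.05, and none of these was called. miR-731 had 359, 422 and 429.4 CPM in *gemin4* mutants, a log2 difference of 0.08 (SE 0.22). miR-125a had 7612, 7184 and 7577 CPM there, a log2 difference of -0.02 (SE 0.09). Against the same wild-type libraries 95 miRNAs were called in *gemin4* mutants (29.1%), 42 in *smn1* mutants (12.8%) and 10 in *gemin5* mutants (3.06%). The families of the *smn1* and *gemin5* mutants each gave a wild-type library, and those of the *gemin6* and *gemin4* mutants gave none.

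Against the mean of *gemin4*, *smn1* and *gemin5* mutants, 28 miRNAs were higher (8.56%) and 29 lower (8.87%) in *gemin6* mutants, 57 in all (17.4%; 110, or 33.6%, at an unadjusted p below 0.05). The 3 largest rises were miR-2185-5p, at 1.73 (SE 0.33), and the 2 arms of miR-1388. miR-1388-5p had the 3 values given above in *gemin6* mutants, against 151, 139 and 131 CPM in *gemin4*, 65.0, 67.5 and 57.2 CPM in *smn1* and 75.2, 63.4 and 61.1 CPM in *gemin5* mutants (log2 difference 1.25, SE 0.12, edgeR adjusted p = 4.04e-06). Its 3p arm differed by 1.65 (SE 0.17). The 3 largest falls were miR-733, miR-725-5p and miR-200c-5p, at -1.13 (SE 0.20), -0.96 (SE 0.27) and -0.88 (SE 0.12). The call of miR-725-5p was lost without *gemin6* replicate 1, *gemin6* replicate 3, *gemin5* replicate 3 or *smn1* replicate 3, with differences of -0.93, -0.84, -0.84 and -0.90. It had 2.41, 2.29 and 3.26 CPM in *gemin4*, 2.63, 3.58 and 4.79 CPM in *gemin5* and 7.63, 7.17 and 8.01 CPM in *smn1* mutants, so that the *smn1* libraries were above those of all other mutants and the *gemin4* libraries overlapped those of *gemin6* mutants. Only miR-733 of these 6 was called between *gemin6* and *gemin4* mutants.

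For 12 of the 327 miRNAs (3.67%) the 3 *gemin6* libraries lay outside all 12 other libraries. Above them were both arms of miR-1388, miR-125b-2-3p, miR-222b, miR-459-5p and miR-2185-5p, 6 in all (1.83%). Below them were miR-200c-5p, miR-133b-3p, miR-203a-5p, miR-199-5p, miR-455-5p and miR-733, also 6. Some margins to the nearest *gemin4* library were narrow. The lowest *gemin6* value was 2.33 against 2.31 CPM for miR-2185-5p and 1175 against 1160 CPM for miR-459-5p. The highest was 695 against 699 CPM for miR-455-5p. Against wild type 9 of the 12 were called, and miR-459-5p, miR-2185-5p and miR-199-5p were not. Lying outside all 12 others includes lying outside wild type, so most calls followed from the choice. Of the 120 miRNAs that did not overlap wild type 87 were called. The counts of miR-199-5p were not whole in any of the 15 libraries.

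The mRNA libraries of *gemin6* mutants gave the levels of the genes that make and carry miRNAs, against the study's 3 shared wild-type libraries, 1 each from the *gemin4*, *gemin6* and *gemin7* families. The mutated gene had 3.14, 3.88 and 2.79 CPM in *gemin6* mutants, against 2.88, 3.97 and 3.52 CPM in wild type (log2 fold change -0.08, SE 0.19). Counts over a gene with a small deletion do not check the genotype. Of 28 listed genes 22 were found by symbol and tested. None of the 22 was called, and none had an unadjusted p below 0.05. Over all 23182 genes edgeR called 0 (0%), with 855 at an unadjusted p below 0.05 (3.69%), and DESeq2 called 12 higher and 12 lower, none of them among the 22. Without wild-type replicate 2 edgeR called 4 higher and 7 lower.

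Log2 fold changes of the 22 genes ran from -0.23 to 0.28. The nuclear processing genes *drosha* and *dgcr8* had 0.15 (SE 0.12) and -0.05 (SE 0.10). *xpo5*, which encodes the exporter of the hairpin, had 11.8, 11.1 and 10.5 CPM in *gemin6* mutants, against 9.24, 9.70 and 8.92 CPM in wild type, a log2 fold change of 0.26 (SE 0.11, unadjusted p = 0.0517), the smallest p of the list. *dicer1* had -0.02 (SE 0.12). Of the Argonaute genes *ago1* had 0.28 (SE 0.18), *ago2* -0.23 (SE 0.13), *ago3a* 0.18 (SE 0.20) and *ago4* -0.09 (SE 0.10). For *tnrc6a*, whose protein links Argonaute to mRNA decay, the value was -0.05 (SE 0.11), and for *xrn2*, an exonuclease that degrades miRNAs in worms, -0.06 (SE 0.10).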

How the data were processed

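Small RNA libraries of larvae at 7 dpf were sequenced with single-end reads. For each mature miRNA name (and each gene, for mRNA) the authors deposited an expected count from RSEM, an estimate that divides shared reads and need not be whole. The submitters' processing notes name Trimmomatic 0.36, STAR 2.5.4a, HISAT2 2.2.1.0, RSEM and danRer10, and how each was applied to small RNA is not given in the sources used here. Names with near-identical sequences can trade reads: 2 pairs, let-7c-3p with let-7d-3p and miR-126a-5p with miR-126b-5p, had the same counts in every library.

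Counts were rounded and filtered with filterByExpr, which left 327 of 350 names. All 15 libraries in 5 groups were fitted with edgeR 4.0.16 (R 4.3.3) by TMM and glmQLFTest, and p-values were adjusted by Benjamini and Hochberg at a threshold of 0.05. SE is the absolute log2 fold change over the square root of F. The same test was run on 6 mRNA libraries. No 2 libraries of a group were copies (smallest chi-square per degree of freedom 68.2). The code was tested on simulated data. Alternatives were DESeq2 1.42.0, other scalings, no filter, thinning to 7781065 counts, the compared libraries alone and leaving out each library. Arm counts and group counts under these were added after the data were seen.

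Named miRNAs were the 12 largest rises and falls called, the 10 most abundant, the most abundant and the called members of each group, and the 3 largest differences each way from other mutants. Values outside that rule (miR-1, miR-206, miR-133b-5p and miR-133c-5p, the partner arms miR-200c-3p and others, miR-2184, and the 12 outside all libraries) were chosen after they were seen. The groups, the comparison and the rule were chosen with earlier results of these data known. Sums over shared seeds were not run, since 0 names could be matched to mature sequences in the references used here. RefSeq order of hairpins (196 of 204 matched, gap up to 10000 bases) is from GRCz12tu, another build than that of the counts. 0 columns of per-sample values were left unmapped.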

Additional observations from a re-analysis of the deposited data

Results flagged for a closer look

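The difference between *gemin6* and *gemin4* mutants was itself tested, and 1 miRNA passed: miR-733, at -1.37 on the log2 scale. Against the mean of *gemin4*, *smn1* and *gemin5* mutants the 3 largest differences each way were miR-2185-5p at 1.73, miR-1388-3p at 1.65, miR-1388-5p at 1.25, miR-733 at -1.13, miR-725-5p at -0.96 and miR-200c-5p at -0.88. miR-2185-5p and miR-733 were read from low levels, 2.33 to 4.01 CPM and 2.67 to 2.83 CPM in *gemin6* mutants. So was miR-725-5p, whose *gemin6* values, given above, were all below those of miR-733. The call of miR-725-5p was lost when any of 4 libraries, 2 of them *gemin6*, was left out. Groups of 3 libraries were too small to test for a single outlying library.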

How the results depend on the processing

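No paired analysis was possible because none of the 3 wild-type small RNA libraries came from the *gemin6* family. All 3 also carry replicate number 1. For the mRNA libraries the correlations of same-numbered libraries were 0.241, 0.194 and -0.005, so the numbers were not taken as pairs, and with the replicate block 0 genes of the miRNA pathway were called, as in every other alternative.

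Against wild type (31 higher, 59 lower), 55 were higher with DESeq2, 52 with its size factors in edgeR and 17 with totals alone. Lower were 136 with totals alone and 18 with the 6 libraries alone. Leaving out each library gave 25 to 42 higher and 40 to 82 lower. Against *gemin4* mutants (0 higher, 1 lower), 2 were higher with DESeq2, and 9 higher and 5 lower with the 6 libraries alone. Leaving out each library gave 0 to 1 higher, the 1 without *gemin4* replicate 3, and 0 to 1 lower. Against the mean of the other mutants (28 higher, 29 lower), 43 were higher with DESeq2 and 42 with its size factors in edgeR, where 22 were lower, 45 lower with totals alone, and 51 higher without the wild-type libraries. Leaving out each library gave 13 to 36 higher and 15 to 31 lower. Among minor arms (2 higher, 43 lower), 6 were higher with DESeq2 and 6 with its size factors, 79 lower with totals alone and 14 with the 6 libraries alone, leaving out each *gemin6* library gave 2 higher and 28 to 35 lower, and leaving out the *gemin5*, *smn1* or *rnpc3* family gave 4, 3 or 5 higher and 44, 58 or 28 lower. The causes were not tested.

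None of the 90 called miRNAs changed direction. Of those named but not called, with totals alone miR-100-5p (-0.0903), miR-10a-5p (-0.00236), miR-143 (-0.0157), miR-26a-5p (-0.188), miR-29a (-0.0299), miR-34a (-0.0311), miR-451 (-0.0696) and miR-92a-3p (-0.0895) turned negative, and miR-199-3p was 0.000251 in the fit of the 6 libraries. Leaving out each *gemin6* library gave miR-26a-5p -0.00705 to 0.0401, miR-29a -0.343 to 0.337 and miR-451 -0.312 to 0.398. Without the *rnpc3* family miR-205-5p was 0.039 and miR-26a-5p -0.0451 and miR-29a -0.121, and without the *gemin5* family miR-216b was 0.0257. Depth limits the names under a few CPM.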
